A study of Mus musculus with 6 samples.

Results

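The genes described here carry the signals of transforming growth factor beta (TGF-beta), the activins and the bone morphogenetic proteins (BMPs) in mouse embryonic fibroblasts. They were chosen by symbol as the ligands, receptors, Smads, antagonists and direct targets of this superfamily. Earlier results of these data were known when the lists and branches were drawn up, so shares set beside all genes are descriptions. Of 48 listed genes, 47 were measured by a probe set annotated to that symbol alone, among 18193 genes in all. Gdf15 was not analysed here. The probe set of highest mean level across the 6 arrays stood for each gene, and its other probe sets served as a check. By their textbook roles 17 of the measured genes were assigned to the TGF-beta/activin branch and 21 to the BMP branch, and 9 were counted as shared or not assigned.

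RNA had been measured on 6 Affymetrix arrays, 1 for each of 6 clonal lines of mouse embryonic fibroblasts, all immortalized spontaneously. Lines E, H and J carried the FHL2-/- genotype, and the wild type lines were E, F and I, so a letter shared between the genotypes names 2 different lines. Each line is 1 clone, the strain, embryo age and culture conditions are not given in the labels, and no group received a treatment. The labels call the clones of a genotype biological replicates but do not say whether each had its own embryo, so p-values here measure the spread between these clones.

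TGF-beta and activin bind pairs of type II and type I receptor kinases that phosphorylate Smad2 and Smad3, whereas BMP receptors phosphorylate Smad1 and Smad5. Either kind of receptor-activated Smad joins Smad4, enters the nucleus and acts on target genes, among them the Id genes for the BMP branch and contractile and matrix genes for the TGF-beta branch. Extracellular antagonists trap the ligands, latency proteins hold TGF-beta in the matrix, and the inhibitory Smads close a feedback loop. In fibroblasts the TGF-beta branch is best known for matrix production and for the contractile state of myofibroblasts.

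Levels are RMA log2 intensities, and differences are knockout minus wild type in those units, each with its standard error (SE) from limma and n = 3 clones of each genotype. A gene is said to have risen or fallen where its limma p, adjusted by Benjamini-Hochberg over all 18193 genes, lay under 0.05, and is then also said to have passed. Fhl2 itself was read at 6.01, 6.44 and 6.57 in knockout lines E, H and J and at 9.88, 8.57 and 9.64 in wild type lines E, F and I. It fell by 3.02 (SE 0.35, adjusted p = 0.0040), and an exact two-sided permutation test gave p = 0.10, the smallest that the 20 assignments of 3 and 3 clones allow. Where its probe set lies relative to the deletion was not analysed here. The median level per array was 4.51 to 4.54 in knockout clones and 4.44 to 4.46 in wild type clones, and the values of wild type clone E were written with 9 decimals against 3 in the others. Markers of fibroblasts were high in every clone (mean level of 10 genes 11.8 to 12.3), and 2 of the 10 rose and 2 fell. Of 8 epithelial markers 7 lay below the median level of all genes in every clone (mean level 4.23 to 4.54), and 1 rose. The mean level of 8 blood markers was 4.37 to 4.53.

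Knockout clone H stood apart from the other knockout clones. Over all genes its values correlated with those of knockout clones E and J at r = 0.964 and 0.968, while E and J correlated at 0.991 and the wild type clones among themselves at 0.988 to 0.991 (across genes, which are not independent replicates). Its level of Xist, the RNA of the inactive X chromosome, was 9.82 and lay between 4.69 and 5.11 elsewhere. The Y-linked Eif2s3y was read at 2.92 in it and at 7.47 to 8.79 in the others. Clone H therefore differed from the other knockout clones in sex-linked transcripts as well, and what this contributed to the differences below was not tested. For the listed genes whose knockout clones spread most, differences are given with and without clone H. Clone H was set apart by its values, so calls gained without it are a description.

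Of the 47 measured genes 9 passed, which is 19.1%, against 19.0% of all genes. The share of changed genes thus lay at the background and is no result about these genes. That background was not matched for level. When only genes at or above the median level were tested, 34.5% of those 9097 genes passed, and 9 of the listed genes among them. Of the listed genes tested there, 37 kept their call and 2 more passed (Tgfb3 and Bmpr1b), a share below 34.5%. Bmp6 and Nog were among the listed genes not tested in that fit. In the fit over all 18193 genes, rises were recorded for 5 of the 47 (Bmp4, Bmp6, Tgfbr2, Acvr1 and Nog), and 9.04% of all genes rose. Falls were recorded for 4 (Smad3, Smad1, Smad7 and Bmp1), and 10.0% of all genes fell. The median difference was 0.17, against 0.04 over all genes, with 26 genes above 0 and 21 below. Knockout and wild type clones did not overlap for 21 of the 47 (12 higher and 9 lower in knockout), or 44.7%, against 38.9% of all genes.

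**Figure D1:**
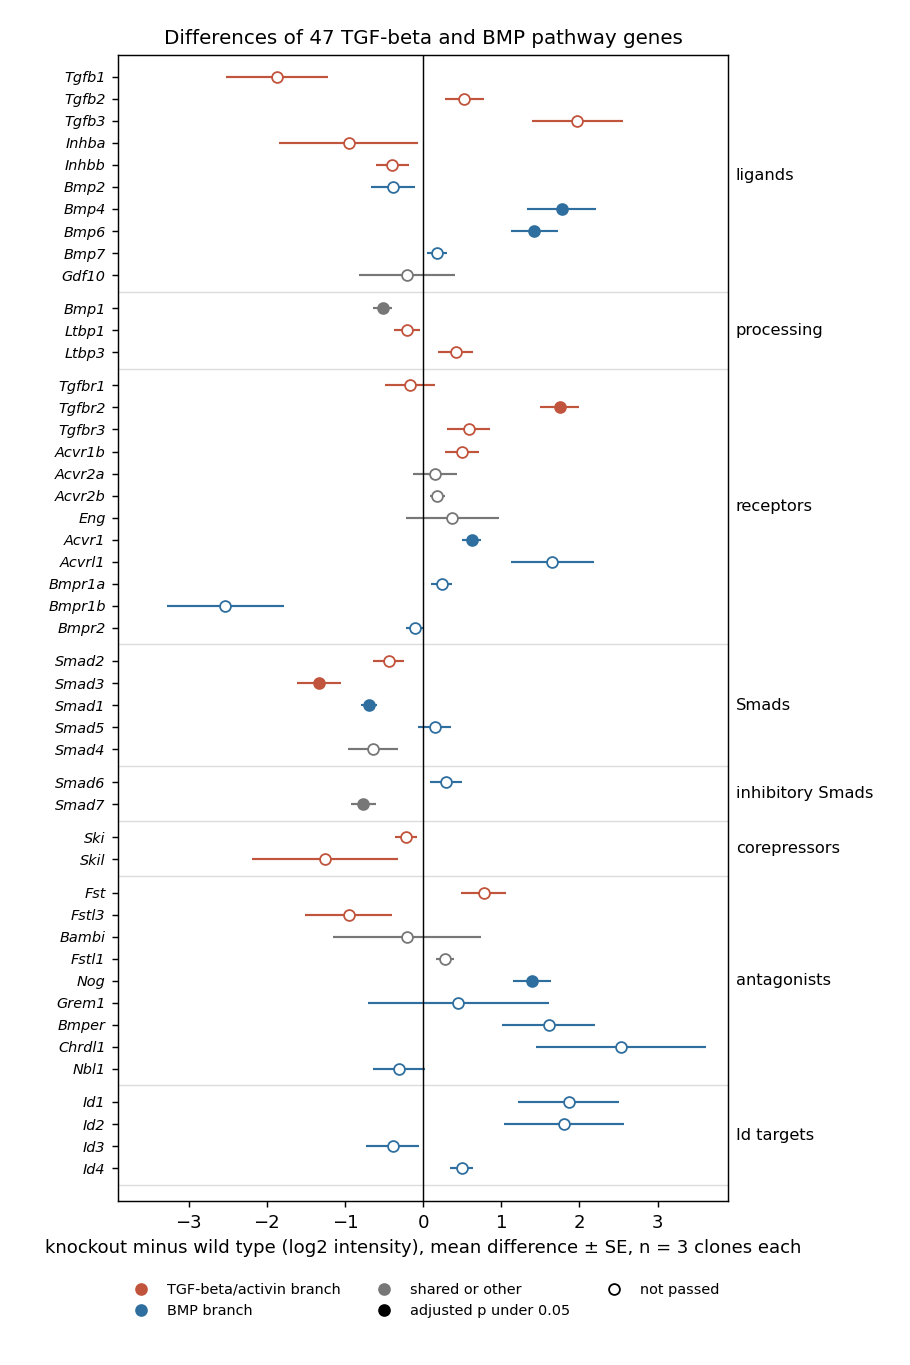
Difference in log2 intensity, knockout minus wild type (horizontal axis, point and bar: mean difference ± SE, n = 3 clones each), for the 47 measured genes grouped by role, coloured by branch and filled where the adjusted p lay under 0.05. The filled points are 5 rises and 4 falls, and many of the largest differences, among them Bmpr1b at -2.53 and Chrdl1 at 2.53, carry wide bars and are open.

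The branches were described by counts and medians, with no test between them. In the TGF-beta/activin branch 1 of 17 genes rose (Tgfbr2) and 1 fell (Smad3), with a median difference of -0.21, 7 genes above 0 and 10 below. In the BMP branch 4 of 21 rose (Bmp4, Bmp6, Acvr1 and Nog) and 1 fell (Smad1), with a median of 0.45, 15 above 0 and 6 below. That median is the difference of Grem1, which has a wide SE of 1.16. The branch also counts BMP antagonists together with ligands, receptors and targets, so its median gives no direction of signalling. Among the 9 shared genes Smad7 and Bmp1 fell, and the median was -0.21. Over all genes 56.4% had a difference above 0. By role, 4 of the 5 receptor-activated and common Smads had a negative difference, among them Smad2 and Smad4 on chromosome 18, which was lower as a whole in knockout clones. Of the 12 receptors 9 had a positive one.

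Of the 10 ligands 2 rose, both of them BMPs. Bmp4, a BMP of mesenchyme and limb patterning, was read at 9.19, 8.54 and 9.37 in knockout lines E, H and J and at 7.25, 8.11 and 6.42 in wild type lines E, F and I. Every knockout clone lay above every wild type clone, although knockout clone H and wild type clone F were close. Bmp4 rose by 1.77 (SE 0.44, adjusted p = 0.0369, 3.42-fold), a call that did not hold without knockout line E (0.104) or J (0.119) or wild type line E (0.117) or I (0.0719). Bmp6, a BMP that also acts on iron balance, was read at 5.26, 5.73 and 4.72 in knockout lines E, H and J and at 3.56, 4.24 and 3.64 in wild type lines E, F and I. The genotypes again did not overlap, and all 6 levels lay below 5.92, the median of gene means. Bmp6 rose by 1.42 (SE 0.30, adjusted p = 0.0219, 2.68-fold), a call that did not hold without knockout line E (0.0657) or wild type line E (0.0861) or I (0.0732). The other BMP ligands did not pass: Bmp2 differed by -0.39 (SE 0.28) at a level under 3.5 in every clone, and Bmp7 by 0.17 (SE 0.13).

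Tgfb3, the TGF-beta isoform of palate and wound repair, was read at 7.99, 10.51 and 9.57 in knockout lines E, H and J and at 7.33, 7.46 and 7.37 in wild type lines E, F and I. All knockout clones lay above the narrow wild type range, but they spread widely among themselves, with an SD of 1.27. The difference of Tgfb3, 1.97 (SE 0.59), did not pass (adjusted p = 0.0625). It was 2.66 without knockout clone E and then passed (adjusted p = 0.00881), and 1.40 without knockout clone H (adjusted p = 0.0540). Tgfb3 also passed with array weights (0.0478) and when only genes at or above the median level were tested (0.0415). Tgfb1, the main TGF-beta of most tissues, was chosen with its values in view, with 5.50, 8.14 and 5.95 in knockout lines E, H and J and 8.26, 8.58 and 8.38 in wild type lines E, F and I. Clones E and J were low, while clone H lay just under the wild type range, and the difference of -1.87 (SE 0.65) did not pass (adjusted p = 0.0978). Without clone H it was -2.68 (SE 0.18), given as a description. Tgfb2 differed by 0.53 (SE 0.25) and did not pass.

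Inhba, the subunit of activin A, was read at 6.30, 10.06 and 7.42 in knockout lines E, H and J and at 9.10, 8.67 and 8.87 in wild type lines E, F and I. Knockout clone H was the highest of the 6 clones and knockout clones E and J were the lowest. The difference of -0.95 (SE 0.89) did not pass (adjusted p = 0.512), and without clone H it was -2.02 (SE 0.32, adjusted p = 0.0062). Inhbb, the subunit of activin B, differed by -0.39 (SE 0.22) with all clones and by -0.62 (SE 0.15, adjusted p = 0.0249) without clone H. Gdf10, also called BMP3B, differed by -0.21 (SE 0.62), with clone H above and clones E and J below the wild type range. Without clone H its difference was -0.91 (SE 0.32, adjusted p = 0.0835).

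Among the proteins that release or store ligands, Bmp1 fell. It encodes a metalloprotease that cuts procollagen, latency proteins and the antagonist chordin. Its levels were 9.02, 9.22 and 9.17 in knockout lines E, H and J and 9.57, 9.85 and 9.55 in wild type lines E, F and I, without overlap. The difference was -0.52 (SE 0.12, adjusted p = 0.0324), and it did not pass without any clone but knockout clone H (0.0626 to 0.0986). The probe sets of Bmp1 disagreed in size. A dimmer probe set for Bmp1 was read at 5.49 to 6.27 in the knockout and at 8.73 to 9.03 in the wild type clones (difference -2.91, SE 0.21, adjusted p = 0.0013), and another did not pass (0.03, SE 0.10). Which transcripts of Bmp1 each probe set reads was not analysed here. The mean of the 3 probe sets gave -1.13. The latency proteins Ltbp1 (8.81, 9.23 and 9.20 in knockout lines E, H and J, 9.40, 9.03 and 9.42 in wild type lines E, F and I) and Ltbp3 (10.02, 10.65 and 10.21, and 9.71, 10.26 and 9.67, in the same order) overlapped between genotypes. Their differences of -0.21 (SE 0.17) and 0.42 (SE 0.22) did not pass.

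Of the 12 receptors 2 rose, Tgfbr2 in the TGF-beta branch and Acvr1 in the BMP branch. Tgfbr2, the type II receptor that binds TGF-beta, was read at 11.30, 11.57 and 11.23 in knockout lines E, H and J and at 9.29, 9.41 and 10.17 in wild type lines E, F and I. The lowest knockout clone lay more than 1 above the highest wild type clone, and clone H was no exception. Tgfbr2 rose by 1.75 (SE 0.25, adjusted p = 0.0069, 3.36-fold), and the call was kept with each of the 6 clones left out (adjusted p 0.0050 to 0.0304). A second probe set of Tgfbr2 rose by 2.03 (SE 0.34), and the last, read below 3 in every clone, did not pass. Its partner Tgfbr1, the type I kinase of TGF-beta, differed by -0.17 (SE 0.32) and did not pass.

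Acvr1, a type I receptor of BMPs also called ALK2, was read at 8.73, 8.85 and 9.09 in knockout lines E, H and J and at 8.29, 8.27 and 8.25 in wild type lines E, F and I. The wild type clones lay close to each other and below all knockout clones. Acvr1 rose by 0.62 (SE 0.12, adjusted p = 0.0167, 1.54-fold), a call that did not hold without wild type clone E (0.0588), F (0.0572) or I (0.0551). Bmpr1b, another type I receptor of BMPs, was chosen with its values in view, with 4.41, 7.16 and 4.29 in knockout lines E, H and J and 7.89, 7.90 and 7.67 in wild type lines E, F and I. All knockout clones were lower, clone H by far the least. The difference of -2.53 (SE 0.75) did not pass (adjusted p = 0.0614), and without clone H it was -3.47 (SE 0.13), given as a description. With all clones a dimmer probe set of Bmpr1b passed (-2.04, SE 0.48, adjusted p = 0.0335). Another did not pass (-1.32, SE 0.37, adjusted p = 0.0543). Bmpr1b passed as the mean of its probe sets (-1.96, 0.0476), with array weights (0.0060) and when only genes at or above the median level were tested (0.0405).

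The most brightly read other receptors had smaller differences. Tgfbr3, the co-receptor betaglycan, was read at 10.97, 10.32 and 10.80 in knockout lines E, H and J and at 9.58, 10.43 and 10.33 in wild type lines E, F and I, with clone H inside the wild type range. Bmpr2, the type II receptor of BMPs, was read at 9.45, 9.67 and 9.51 and at 9.59, 9.57 and 9.79 in the same order, with overlap. Their differences of 0.58 (SE 0.27) and -0.11 (SE 0.11) did not pass. Acvrl1, the type I receptor ALK1 best known from endothelium, differed by 1.65 (SE 0.53, adjusted p = 0.0779), with 5.56, 5.25 and 7.22 in knockout lines E, H and J and with 3.97, 4.85 and 4.25 in wild type lines E, F and I. Without clone H the difference of Acvrl1 was 2.03 (SE 0.49, adjusted p = 0.0268). Its other probe set, whose name lacks the suffixes _a_at, _s_at and _x_at, gave 0.79 with all clones (adjusted p = 0.0592). Eng, its co-receptor endoglin, was highest in knockout clone H at 8.23, against 6.02 and 6.29 in knockout clones E and J and 6.09 to 7.0 in wild type clones. Its difference was 0.38 (SE 0.59) with all clones and -0.32 (SE 0.27) without clone H. Acvr1b, Acvr2a, Acvr2b and Bmpr1a, receptors of activins and BMPs, differed by 0.50, 0.15, 0.18 and 0.24 and did not pass. Without clone H, Acvr1b differed by 0.72 (adjusted p = 0.0127) and Acvr2a by 0.47 (adjusted p = 0.0430), and each passed. Bmpr1a had other probe sets that rose: the differences were 0.48 (SE 0.10) and 0.39 (SE 0.09), with adjusted p = 0.0214 and 0.0348.

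Beside these endothelial receptors, the list of 7 endothelial markers had a mean level of 3.88 to 4.32 in the knockout and of 3.31 to 3.68 in the wild type clones. Of the list Tek alone rose, an angiopoietin receptor read at 8.36, 4.68 and 8.91 in knockout lines E, H and J and at 2.54 to 3.31 in wild type clones (difference 4.27, SE 1.07, adjusted p = 0.0378). It did not pass without any clone but knockout clone H (0.0964 to 0.111). Pecam1, Cdh5, Tie1, Emcn and Vwf were read below 4.2 in every clone. Kdr, a receptor of vascular growth factor, was read at 4.85, 6.99 and 4.81 in knockout lines E, H and J and at 5.49, 6.70 and 5.38 in wild type lines E, F and I, with overlap. Fewer cells of a kind and less RNA per cell cannot be told apart in such bulk RNA, and the part of marker genes in the receptor values was not tested.

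The Smads showed falls on both branches. Smad3, which carries the TGF-beta signal to DNA, was read at 7.53, 8.69 and 7.93 in knockout lines E, H and J and at 9.45, 9.41 and 9.28 in wild type lines E, F and I. The wild type clones were tightly grouped and all knockout clones lay below them, clone H nearest. Smad3 fell by 1.33 (SE 0.28, adjusted p = 0.0235, 2.51-fold), a call that did not hold without knockout clone J (0.0816) or wild type clone E (0.0879), F (0.0756) or I (0.0631). Without clone H the difference was -1.65 (SE 0.15). Both other probe sets of Smad3 also had a negative difference, -1.22 (SE 0.26, adjusted p = 0.0261) and -1.05 (SE 0.34, adjusted p = 0.0875).

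Smad1, the carrier of the BMP signal, had the least spread among knockout clones of the genes that passed. It was read at 8.20, 8.23 and 8.23 in knockout lines E, H and J and at 9.01, 8.77 and 8.95 in wild type lines E, F and I. Smad1 fell by 0.69 (SE 0.10, adjusted p = 0.0078, 1.61-fold), and the call was kept with each of the 6 clones left out (adjusted p 0.0085 to 0.0342). All 3 of its probe sets fell, by 0.69, 0.74 and 0.69. Smad5, the other BMP Smad measured among the listed genes, differed by 0.15 (SE 0.21) and did not pass.

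Smad2 was read at 8.87, 8.12 and 8.75 in knockout lines E, H and J and at 9.04, 8.98 and 9.03 in wild type lines E, F and I. Smad4, the common partner, was read at 9.88, 8.72 and 9.88 and at 10.14, 10.10 and 10.17 in the same order. In each the knockout clones lay below the wild type clones and clone H was the lowest. Their differences of -0.44 (SE 0.20) and -0.64 (SE 0.32) did not pass. Smad7, the inhibitory Smad of both branches, was read at 6.73, 6.63 and 7.10 in knockout lines E, H and J and at 7.62, 7.71 and 7.43 in wild type lines E, F and I, without overlap. Smad7 fell by 0.76 (SE 0.16, adjusted p = 0.0203, 1.70-fold), a call that did not hold without knockout clone E (0.0666) or wild type clone E (0.0768) or F (0.0711). Smad6, the inhibitory Smad that favours the BMP branch, was read at 7.88, 7.89 and 8.09 in knockout lines E, H and J and at 7.79, 7.96 and 7.21 in wild type lines E, F and I. It overlapped between genotypes, and its difference of 0.30 (SE 0.21) did not pass.

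Smad2, Smad4, Smad7 and the antagonist Bambi lie on chromosome 18 by RefSeq (GRCm38.p6), and the level of that whole chromosome moved with genotype. The median deviation of its 229 genes at or above the median level from the wild type mean was -1.0 in knockout clone H, -0.31 in clone E and -0.33 in clone J. In the wild type clones it lay between -0.10 and 0.11, and in knockout clones the other chromosomes lay between -0.47 and 0.54. Some of these also moved with genotype. In knockout lines E, H and J chromosome 12 stood at 0.41, 0.53 and 0.54 and chromosome 4 at -0.37, -0.26 and -0.47, so chromosome 18 stood apart in clone H alone. When the median of the 40 nearest measured genes was subtracted in each clone, the difference of Smad7 was -0.52 and still passed (adjusted p = 0.0434). In the same calculation the difference of Smad2 was -0.16 in place of -0.44, that of Smad4 was -0.29 in place of -0.64 and that of Bambi was 0.07 in place of -0.21, and none of these passed. That of Tgfb3, on chromosome 12, was 1.53 in place of 1.97 and did not pass (adjusted p = 0.105).

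**Figure D2:**
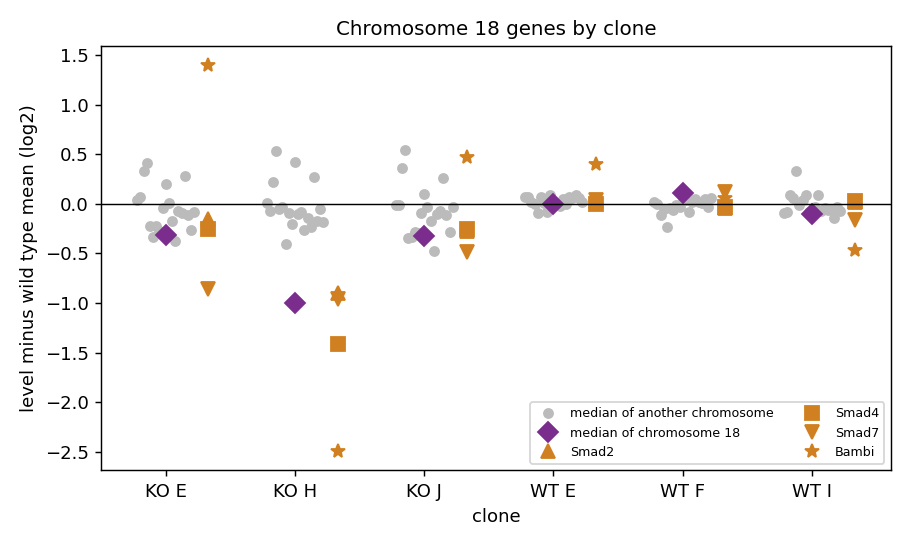
Median deviation from the wild type mean (vertical axis, log2) of the genes of each chromosome at or above the median level (grey circles, chromosome 18 as purple diamonds), and the deviation of 4 pathway genes on it (orange), for each clone (horizontal axis). Chromosome 18 stood at -1.0 in knockout clone H, below every other chromosome there, and Smad2, Smad4, Smad7 and Bambi were all negative in that clone.

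The corepressors Ski and Skil, which hold Smad2 and Smad3 targets silent, did not pass. Ski was read at 9.49, 9.07 and 9.44 in knockout lines E, H and J and at 9.53, 9.61 and 9.52 in wild type lines E, F and I, lowest in clone H. Skil was read at 5.45, 9.48 and 7.22 in knockout lines E, H and J and at 8.48, 8.40 and 9.04 in wild type lines E, F and I. Clone H was the highest of the 6 for Skil and clones E and J the lowest, the order also seen for Inhba. The difference of Skil was -1.26 (SE 0.94, adjusted p = 0.407) with all clones and -2.30 (SE 0.50, adjusted p = 0.0177) without clone H.

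Of the 9 antagonists and ligand-binding proteins Nog alone rose. Nog, noggin, seals BMP ligands away from their receptors. Its levels were 4.71, 4.93 and 5.63 in knockout lines E, H and J and 3.63, 3.58 and 3.89 in wild type lines E, F and I. The genotypes did not overlap, and all 6 levels lay below the median of gene means. Nog rose by 1.39 (SE 0.25, adjusted p = 0.0131, 2.62-fold), a call that did not hold without wild type clone E (0.0578) or F (0.0519).

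Chrdl1, a chordin-like BMP antagonist encoded on the X chromosome, was chosen with its values in view, with 8.11, 4.12 and 8.37 in knockout lines E, H and J and 4.33, 4.33 and 4.33 in wild type lines E, F and I. Knockout clones E and J alone stood above the flat wild type level. The difference was 2.53 (SE 1.09, adjusted p = 0.162) with all clones and 3.91 (SE 0.12) without clone H, the latter given as a description. Bambi, a decoy receptor without a kinase, was chosen the same way and read at 9.69, 5.80 and 8.77 in knockout lines E, H and J and at 8.69, 8.35 and 7.83 in wild type lines E, F and I. Clone H was far below and clones E and J above the wild type range. The difference of Bambi was -0.21 (SE 0.95) with all clones, which did not pass, and 0.94 (SE 0.34) without clone H, given as a description.

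Grem1, gremlin, a BMP antagonist of fibroblasts, varied within both genotypes, with 7.87, 11.64 and 7.97 in knockout lines E, H and J and 8.56, 7.41 and 10.15 in wild type lines E, F and I. It was the only listed gene with a standard deviation above 1 among wild type clones. The difference of Grem1 was 0.45 (SE 1.16) with all clones and -0.79 (SE 0.71) without clone H, and neither passed. Fstl1, a secreted follistatin-like protein, was bright in all clones, with 12.63, 12.63 and 12.35 in knockout lines E, H and J and 12.17, 12.29 and 12.32 in wild type lines E, F and I. The genotypes did not overlap but nearly touched, and the difference of 0.28 (SE 0.12, adjusted p = 0.157) did not pass. The activin traps Fst and Fstl3 differed by 0.77 (SE 0.28) and -0.95 (SE 0.56), the BMP-binding protein Bmper by 1.60 (SE 0.60), and the BMP antagonist Nbl1 by -0.31 (SE 0.33), and none passed. Without clone H the differences were 0.53 (SE 0.24) for Fst, -1.45 (SE 0.44) for Fstl3, 0.93 (SE 0.31) for Bmper and -0.70 (SE 0.14) for Nbl1, of which the last passed (adjusted p = 0.0141).

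**Figure D3:**
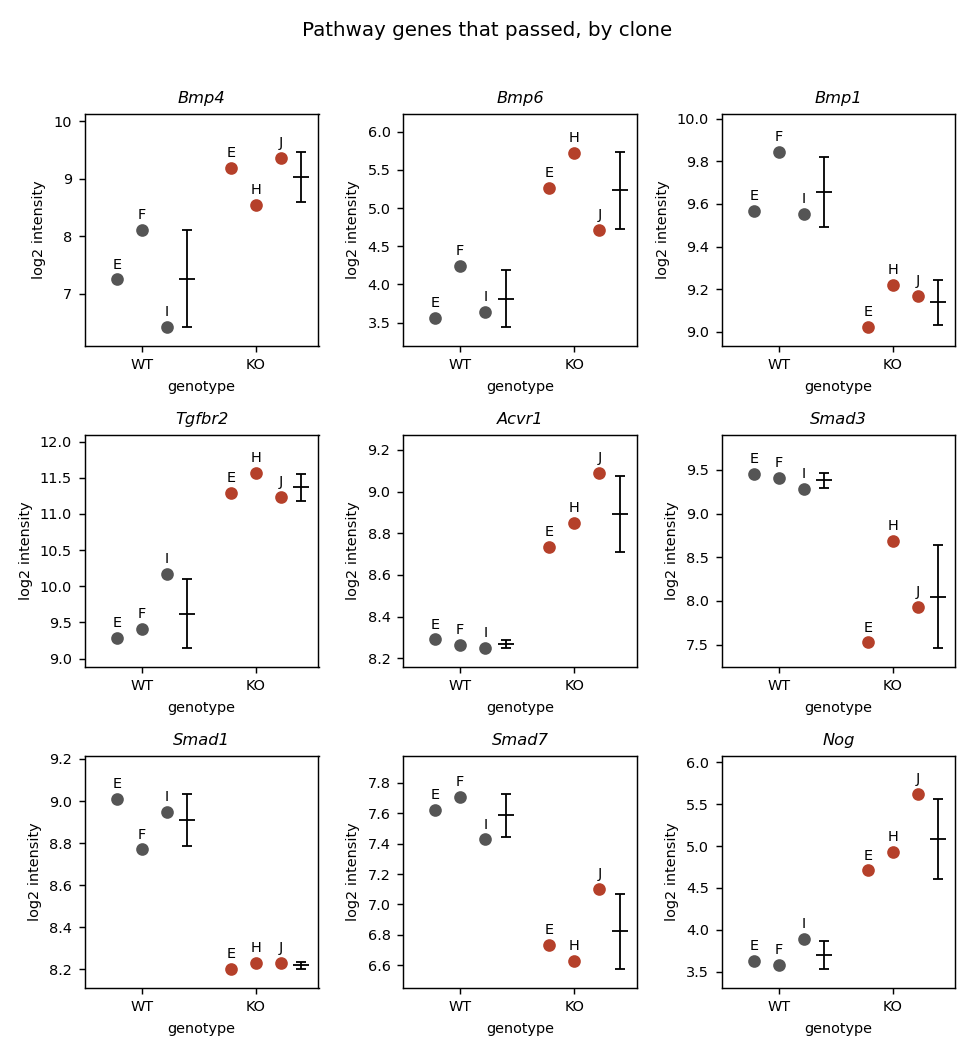
Log2 intensity (vertical axis, scale set per gene) of the 9 genes that passed, for each wild type clone (grey) and knockout clone (red), with bars showing mean ± SD of the 3 clones. No wild type clone overlaps a knockout clone in any of the 9 panels, and the spread of knockout clones runs from 0.02 (SD) for Smad1 to 0.59 for Smad3.

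The Id genes, direct targets of BMP Smads that encode inhibitors of basic helix-loop-helix factors, did not pass with all clones. Id1 and Id2 were singled out after their values were seen. Id1 was read at 10.38, 8.14 and 10.45 in knockout lines E, H and J and at 7.62, 8.39 and 7.36 in wild type lines E, F and I. Id2 was read at 10.06, 7.49 and 10.01 and at 7.65, 8.03 and 6.46 in the same order. For each gene clones E and J lay well above, and clone H within, the wild type range. The difference of Id1 was 1.86 (SE 0.65, adjusted p = 0.0988) with all clones and 2.62 (SE 0.29) without clone H. The difference of Id2 was 1.80 (SE 0.77, adjusted p = 0.160) with all clones and 2.65 (SE 0.43) without clone H. The values without clone H are given as a description.

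Id3 and Id4 behaved otherwise. Id3 was read at 10.12, 9.01 and 9.98 in knockout lines E, H and J and at 9.78, 10.53 and 9.96 in wild type lines E, F and I, with clones E and J inside the wild type range and clone H below it. Its difference was -0.39 (SE 0.34) with all clones and -0.04 (SE 0.23) without clone H. Id4 was read at 10.03, 9.84 and 10.28 in knockout lines E, H and J and at 9.52, 9.73 and 9.43 in wild type lines E, F and I. Every knockout clone of Id4 was higher, and the difference of 0.49 (SE 0.15) did not pass (adjusted p = 0.0659). Without clone H it was 0.60 (SE 0.15, adjusted p = 0.0273), and Id4 also passed after a second quantile normalization (0.0453) and with array weights (0.0241).

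Promoter letters are shown for 3 Id genes, which moved differently, and for Tgfbr2, the rise with the smallest adjusted p. Each is the 250 bases before the gene's start in RefSeq, 5′ to 3′ on the gene's own strand, and 32 of the 47 measured genes had an entry in that table of assembly GRCm38.p6. Capitals mark GGCGCC, a palindrome that BMP Smads bind, in Id2 and Id4, and CAGAC or its reverse complement GTCTG, the Smad-binding element, in Id3 and Tgfbr2. Id2 is at chr12:25096093-25096342 (minus strand), Id3 at chr4:136143572-136143821 (plus strand), Id4 at chr13:48260866-48261115 (plus strand) and Tgfbr2 at chr9:116175364-116175613 (minus strand).
Id2: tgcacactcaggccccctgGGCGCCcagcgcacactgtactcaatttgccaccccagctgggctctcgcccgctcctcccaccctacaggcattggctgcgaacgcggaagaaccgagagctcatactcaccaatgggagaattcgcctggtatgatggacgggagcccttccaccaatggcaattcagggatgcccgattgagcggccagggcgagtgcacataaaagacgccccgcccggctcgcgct
Id3: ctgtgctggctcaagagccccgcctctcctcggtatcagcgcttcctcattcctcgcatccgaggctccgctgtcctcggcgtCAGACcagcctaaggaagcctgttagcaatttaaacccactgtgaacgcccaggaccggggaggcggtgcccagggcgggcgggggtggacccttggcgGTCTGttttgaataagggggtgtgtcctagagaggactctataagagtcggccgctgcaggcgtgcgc
Id4: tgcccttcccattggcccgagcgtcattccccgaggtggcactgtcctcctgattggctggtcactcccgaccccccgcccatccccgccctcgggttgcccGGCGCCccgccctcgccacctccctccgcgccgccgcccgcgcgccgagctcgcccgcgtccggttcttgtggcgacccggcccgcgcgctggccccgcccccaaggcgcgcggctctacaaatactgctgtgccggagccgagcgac
Tgfbr2: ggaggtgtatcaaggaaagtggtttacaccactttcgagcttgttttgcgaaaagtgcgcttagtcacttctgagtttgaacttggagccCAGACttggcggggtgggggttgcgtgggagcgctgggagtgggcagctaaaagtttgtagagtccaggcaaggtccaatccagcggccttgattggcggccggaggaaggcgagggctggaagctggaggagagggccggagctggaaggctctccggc

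Id2 and Id4 each held 1 GGCGCC and no CAGAC, Id3 held 2 matches to CAGAC, 1 on each strand, and Tgfbr2 held 1 of them. The palindrome GGCGCC was found in 9 of the 32 genes with a promoter entry and in 9.59% of all 32851 promoters of the table. CAGAC, on either strand, was found in 15 of the 32 and in 42.2% of all promoters. TGANTCA, the AP-1 motif searched for comparison, was found in 0 of the 32 and in 6.75% of all promoters. These motifs do not overlap each other in the letters shown, and a match describes the letters of this window alone.

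Across the listed genes the knockout clones varied more than the wild type clones. The standard deviation exceeded 1 for 14 of the 47 genes among knockout clones (Tgfb1, Tgfb3, Inhba, Gdf10, Eng, Acvrl1, Bmpr1b, Skil, Bambi, Grem1, Bmper, Chrdl1, Id1 and Id2), and clone H was the farthest from the others in 12 of the 14. Over all 18193 genes the same held for 591, with clone H farthest in 492, and 103 genes exceeded 1 among wild type clones. A difference of more than 1 from the wild type mean was found for 17, 14 and 15 of the 47 genes in knockout lines E, H and J, or 36.2%, 29.8% and 31.9%. For all genes, which include those of low level and were not matched for level, the shares were 12.5%, 10.7% and 13.6%. Listed genes outside the wild type range made up 87.2%, 76.6% and 80.9% in the same order, against 70.5%, 67.9% and 71.5% of all genes.

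Knockout clones E and J lay outside the wild type range on the same side for 37 of the 47 genes. Such patterns were not counted over all genes, so the counts here are no result about the listed genes. Of all genes, 70.5% in clone E and 71.5% in clone J lay outside that range on either side. Clone H lay on that side too for 21 of the 37, which include all 9 genes that passed. It lay inside the wild type range for 8 (Inhbb, Bmp2, Tgfbr3, Acvr1b, Bmpr2, Fstl3, Id1 and Id2). For another 8 it lay on the opposite side (Inhba, Gdf10, Tgfbr1, Acvr2a, Skil, Bambi, Chrdl1 and Nbl1).

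**Figure D4:**
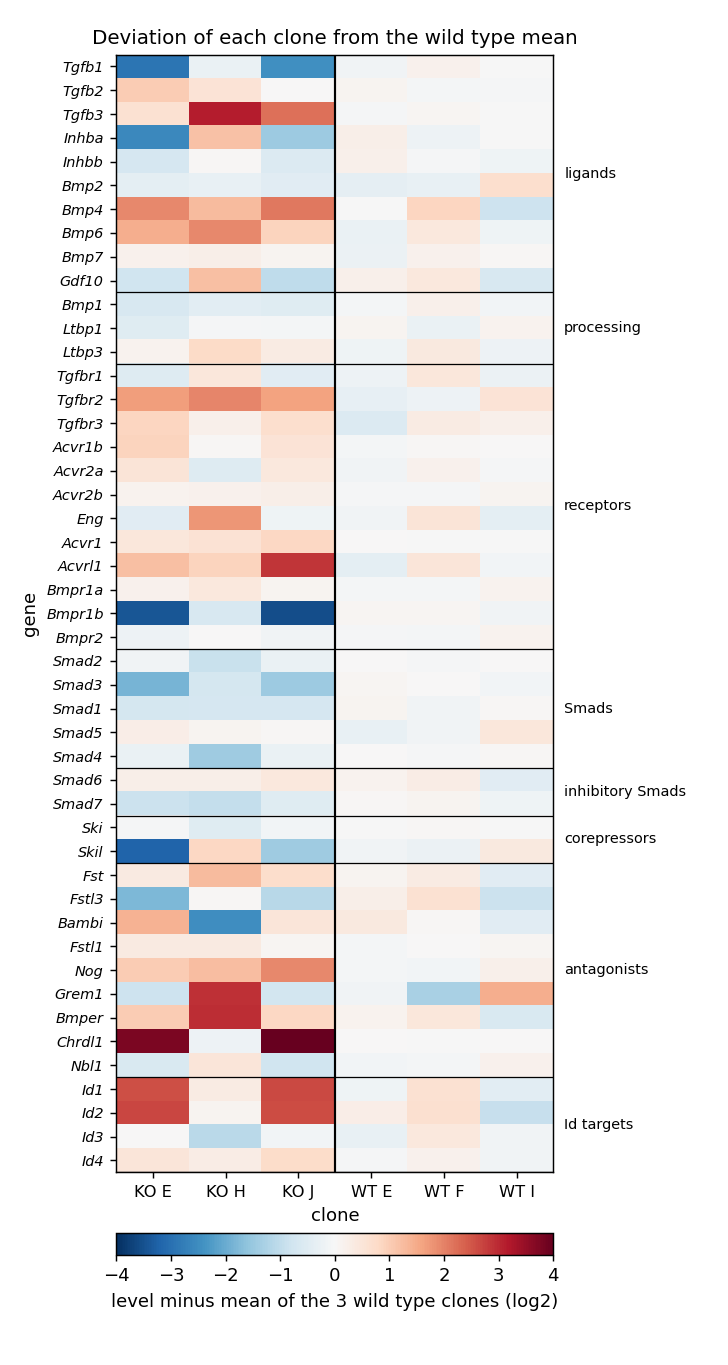
Level of each gene in each clone minus the mean of the 3 wild type clones (colour, log2, from -4 in blue to 4 in red), with clones in columns and genes in rows by role. Tgfbr2 and Bmp4 are red, and Smad1 and Smad3 blue, in all 3 knockout clones, while Tgfb1, Id1, Id2 and Chrdl1 are strongly coloured in clones E and J alone.

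Leaving out clone H, 22 of the 47 genes passed (12 rose and 10 fell), including the 9 that passed with it. This is 46.8%, against 26.1% of all genes in the same fit, which were not matched for level. The TGF-beta/activin branch then had 2 rises and 5 falls of 17 (median -0.21), the BMP branch 9 rises and 3 falls of 21 (median 0.33), and the shared genes 1 rise (Acvr2a) and 2 falls (Bmp1 and Smad7) of 9. The median over the listed genes was 0.14, against 0.05 over all genes. In this fit Tgfb1, Inhba, Inhbb, Smad3 and Skil were lower and Tgfbr2 and Acvr1b higher in the TGF-beta/activin branch. In the BMP branch Bmp4, Bmp6, Acvr1, Acvrl1, Nog, Chrdl1, Id1, Id2 and Id4 were higher and Bmpr1b, Smad1 and Nbl1 lower. Each clone was left out in turn, but the fit without clone H is set out because the values of clone H stood apart. All calls gained in this fit are therefore a description and carry no test. With 2 knockout clones the fit takes their spread as that of the other groups, and whether clone H or clones E and J better represent the genotype was not tested.

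**Figure D5:**
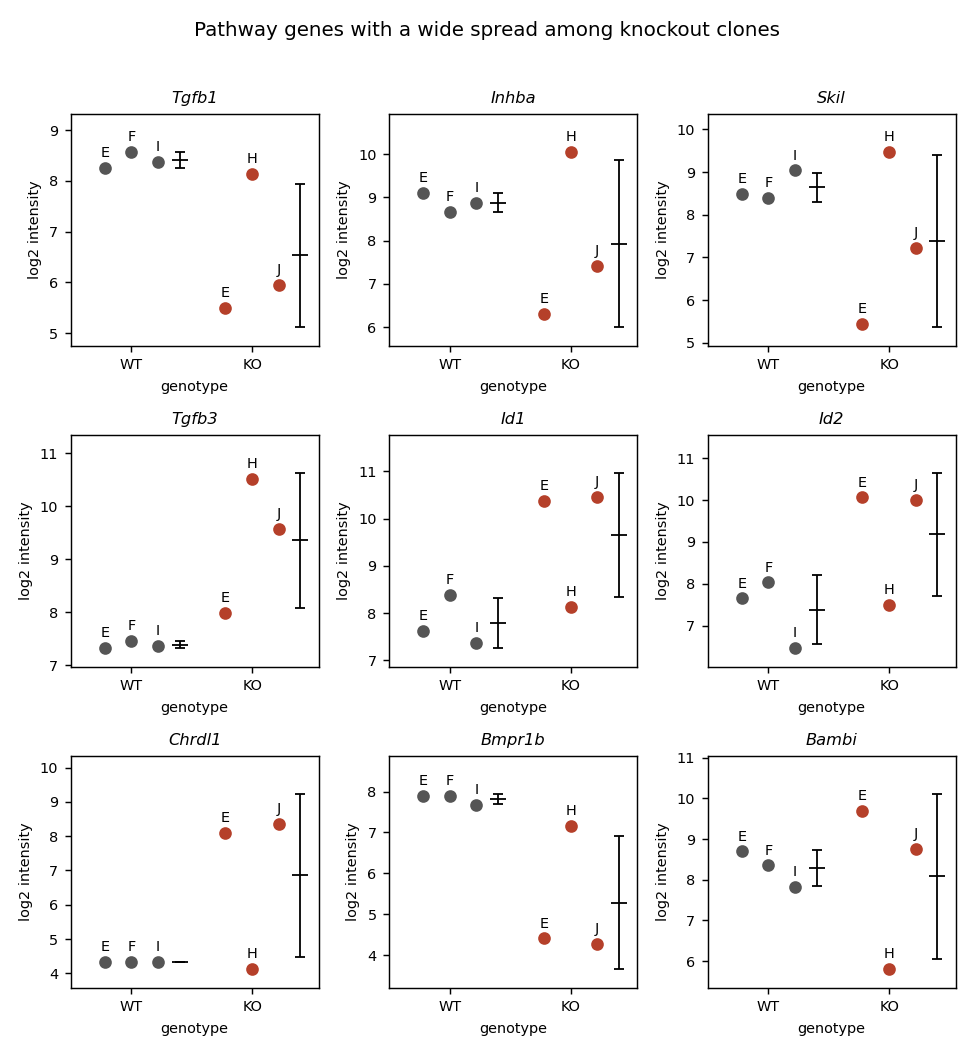
Log2 intensity (vertical axis, scale set per gene) of 9 genes with a standard deviation above 1 among knockout clones, for each wild type clone (grey) and knockout clone (red), with bars showing mean ± SD of the 3 clones. Clone H lies near or within the wild type values for Tgfb1, Id1, Id2, Chrdl1 and Bmpr1b, and at the far side of them from clones E and J for Inhba, Skil and Bambi.

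The other genes of the pathway, taken from a list of 113 measured genes that are no members, gave 16 rises and 9 falls (22.1%, against 19.0% of all genes; median 0.09). Among 69 further components 10 rose and 7 fell. The latency and microfibril genes named by the smallest p were Fbn2, Ltbp4 and Ltbp2. Fbn2, a fibrillin whose microfibrils bind latent complexes, was read at 11.24, 10.87 and 11.48 in knockout lines E, H and J and at 3.97, 4.0 and 5.96 in wild type lines E, F and I, a rise of 6.55 (SE 0.54, adjusted p = 0.0017). Ltbp4, a latent TGF-beta binding protein, was read at 9.38, 8.94 and 9.98 and at 6.79, 6.86 and 6.76 in the same order, a rise of 2.63 (SE 0.25, adjusted p = 0.0024). Ltbp2, its relative, was read at 10.01, 11.63 and 10.96 and at 7.34, 6.93 and 7.34, a rise of 3.66 (SE 0.39, adjusted p = 0.0032). All knockout clones, clone H included, were far above the wild type clones for Fbn2, Ltbp4 and Ltbp2, unlike the listed Ltbp1 and Ltbp3. Fbn2 lies on chromosome 18 and Ltbp2 on chromosome 12. Inha, the inhibin alpha subunit, rose by 1.08 (SE 0.13, adjusted p = 0.0039), and these 4 calls were kept with each clone left out.

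Further regulators were singled out after their values were seen. The ubiquitin ligase Smurf1 fell by 0.75 (SE 0.13, adjusted p = 0.0112) and Strap, a receptor-associated inhibitor, by 0.65 (SE 0.10, adjusted p = 0.0092), calls kept with each clone left out. The related ligase Smurf2 rose by 0.70 (SE 0.16, adjusted p = 0.0284), a call that did not hold without knockout line E (0.0863) or J (0.0893) or wild type line E (0.0923) or F (0.0637). The BMP antagonist Chrd, chordin, rose by 1.07 (SE 0.21, adjusted p = 0.0179), a call that did not hold without knockout line J (0.067) or wild type line E (0.0687) or I (0.0606). The nodal antagonist Lefty1 fell by 1.52 (SE 0.28, adjusted p = 0.0140), lost without knockout clone J (0.0528).

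Of 27 targets of the TGF-beta branch 3 rose and 0 fell with all clones, together 11.1%, against 19.0% of all genes (median 0.10, against 0.04). The rises were Snai1, Postn and Ltbp2, the last of which is also counted among the further components above. Snai1, a repressor of epithelial genes, rose by 0.93 (SE 0.15, adjusted p = 0.0105), kept with each clone left out. Postn, the matrix protein periostin, rose by 1.19 (SE 0.21, adjusted p = 0.0139), lost without wild type clone E (0.0604). Junb, the fourth by p, differed by 1.36 (SE 0.40) and did not pass (adjusted p = 0.0596), but passed without knockout clone E (0.0433).

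Contractile targets and Ccn2 were singled out after their values were seen because clone H read like wild type, so their values without clone H are a description and carry no test. Ccn2, a matricellular growth factor, was read at 8.20, 12.23 and 9.16 in knockout lines E, H and J and at 12.45, 11.54 and 11.93 in wild type lines E, F and I. Tagln, the actin-binding transgelin, was read at 8.14, 12.76 and 9.01 and at 13.25, 12.64 and 12.88 in the same order. For Ccn2 and Tagln, clones E and J lay below the wild type range and clone H inside it. Their differences of -2.11 (SE 0.98) and -2.96 (SE 1.13) did not pass, and without clone H they were -3.30 and -4.35. Cnn1 and Acta2, calponin and smooth muscle actin, differed by -3.48 (SE 1.21) and -1.56 (SE 0.71) and did not pass, and without clone H they were at -4.93 and -2.44. The related Ccn1 did not follow Ccn2: it was read at 11.24, 11.89 and 11.80 in knockout lines E, H and J and at 11.76, 11.28 and 11.61 in wild type lines E, F and I (difference 0.10, SE 0.21). The mean level of 7 muscle markers, a list that holds Cnn1 and Acta2 too, was 5.18, 6.96 and 5.19 in knockout lines E, H and J and 7.77, 6.98 and 6.72 in wild type lines E, F and I. Of these 7 markers 1 fell, the actin gene Actg2 (difference -4.64, SE 1.09, adjusted p = 0.0311). Clone H read 6.61 for Actg2, above knockout clones E (3.66) and J (4.36) and below every wild type clone (7.62 to 11.23). The call did not hold without knockout line E (0.0889) or J (0.102) or wild type line E (0.0939) or F (0.0941). Tpm1, another contractile target, differed by -0.24 (SE 0.31), with overlap. The part of the marker list in the values above was not tested. Myod1 and Myog, which define skeletal muscle, were read below 4.1 in every clone.

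Of 19 targets of the BMP branch 4 rose and 2 fell, together 31.6%, against 19.0% of all genes (median 0.20, against 0.04). The homeobox gene Dlx2 was read at 5.21, 4.62 and 5.42 in knockout lines E, H and J and at 3.54, 3.60 and 3.31 in wild type lines E, F and I, a rise of 1.60 (SE 0.22, adjusted p = 0.0063). The Krüppel-like factor Klf4 was read at 10.73, 10.10 and 11.22 and at 8.50, 8.94 and 8.09 in the same order, a rise of 2.17 (SE 0.33, adjusted p = 0.0084). Gata3 and Tbx3, transcription factors of development, fell by 1.88 (SE 0.29) and 2.11 (SE 0.33), with adjusted p = 0.0086 and 0.0088. The groups did not overlap for Dlx2, Klf4, Gata3 or Tbx3, and these 4 calls were kept with each clone left out. Atoh8, chosen after its values were seen, was read at 8.33, 6.77 and 8.46 in knockout lines E, H and J and at 6.99, 7.33 and 6.32 in wild type lines E, F and I, high in clones E and J alone. Its difference of 0.97 (SE 0.49) did not pass, and without clone H it was 1.52, given as a description.

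Other probe sets were read as a check on the choice of 1 per gene. Of the 47 genes 33 had more than 1 probe set, and 50 of the 58 others had the same sign of difference as the chosen one. Of these 58, 10 passed, each in the direction of the chosen one. For the 6 genes that passed and had others, 9 of 11 agreed in sign and 7 passed. The number of arrays limits the precision. On the same arrays the median SE was 0.28 for the listed genes and 0.14 over all genes, which were not matched for level.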

How the data were processed

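The authors deposited log2 intensities, made with RMA per the submitters' processing notes, for 45101 probe sets on each of 6 arrays; the version and settings of RMA were not stated. RMA removes background, normalizes arrays by quantiles and summarizes probes, so a shift shared by all genes would be removed. Groups and clone letters came from the sample titles.

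Left out were 64 control probe sets, 932 with several symbols and 9160 with none. Of the other 34945, 34741 matched a gene ID of RefSeq (assembly GRCm38.p6) and 0 symbols changed. Each of 18193 genes was read from its probe set with the highest mean, with no filter on low levels. The test was that of limma 3.58.1, run in R 4.3.3 with lmFit and eBayes (genotype as the only term, 4 residual degrees of freedom), with Benjamini-Hochberg adjustment over all genes at 0.05. The steps were tested on simulated data. Figures used matplotlib 3.10.9 in Python 3.11.15.

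The members, lists, branches and roles were chosen with earlier results of these data known. Values of all clones are given for members that passed and, per role, for up to 2 others with the highest level. Of each further list up to 4 genes with the smallest p are named, and others were singled out afterwards. Alternatives were another prior, normalizations, array weights, probe set choices, a level filter, a 2-fold threshold and each clone left out; subtracting the median of 40 neighbouring genes was added after seeing the data. Several listed genes that are no members were not analysed here.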

Additional observations from a re-analysis of the deposited data

How the results depend on the processing

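The counts of genes that passed depended on array weights, on the clones used and on the threshold, and so did the counts over all genes. Of the 47 listed genes 9 passed; the count was 18 with array weights, where knockout clone H had a weight of 0.385 and 27.1% of all genes passed, 5 with an added 2-fold threshold and 2 to 22 with a clone left out, highest without knockout clone H and lowest without wild type clone E. Over all genes 3464 passed, and 1661 to 4750 with a clone left out. The count in the TGF-beta/activin branch was 5 with array weights and 1 to 7 with a clone left out. That in the BMP branch was 11, 3 with the 2-fold threshold, and 1 to 12. The wider pathway and targets gave 14 with the 2-fold threshold and 14 to 38 with a clone left out. The median difference of the listed genes lay between 0.081 (without wild type clone E) and 0.20 with a clone left out. Fhl2 passed under every alternative run for it, and with a clone left out its difference lay between -3.42 and -2.77. Its probe set was not in the fit that left out probe sets with the suffix _a_at, _s_at or _x_at.

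The sign of the difference was kept by 39 of the 47 genes under each of the 15 alternatives (the threshold aside) in which the gene was tested. None of the 8 that reversed had passed. With array weights Eng was at -0.053, Bambi at 0.49 and Grem1 at -0.34. With neighbouring genes subtracted Ltbp1 was at 0.029 and Bambi at 0.074. With a clone left out the ranges were -0.91 to 0.19 for Gdf10, -0.49 to 0.057 for Tgfbr1, -0.043 to 0.47 for Acvr2a, -0.32 to 0.79 for Eng, -0.0072 to 0.38 for Smad5, -1.01 to 0.94 for Bambi and -0.79 to 1.17 for Grem1. The cause of these changes was not tested. Bmp2, Bmp6, Bmp7, Gdf10, Acvr2b, Acvrl1, Nog and Chrdl1 were not tested among genes at or above the median level. Eng, Grem1 and Id1 were not tested in the fit that left out probe sets with the suffix _a_at, _s_at or _x_at. No paired analysis was possible because the genotypes share only the clone letter E, which names different lines. The precision is limited by 3 clones per genotype, and probe sets near background, such as those of Bmp2, Bmp6 and Nog, may understate a change.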
